A study of Mus musculus with 32 samples.

Results

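Rpph1, Rmrp, Rn7s1, Rn7s2, Rn7s6, Rn7sk and Terc, the RNA subunits of RNase P, RNase MRP, the signal recognition particle, the 7SK particle and telomerase, were taken by gene name from a table of 45706 genes, of which they are 7. The members were chosen by the share of counts in structural RNAs, which differed between the vehicle libraries, so the vehicle libraries are described without a test where a mimic is compared. The libraries came from BV-2, an immortalised mouse microglial line whose labelled cell type is glioblastoma and whose labelled genotype is WT. The cells carried a mimic of miR-7a-5p, of miR-29a-3p, of miR-146a-5p or of a scramble control, each under vehicle (VEH) or lipopolysaccharide (LPS) at 10 ng/ml for 24 h, which gives 8 groups of 4 libraries numbered 1 to 4. A mimic is a synthetic RNA duplex that stands in for a mature microRNA, and LPS is a bacterial wall component that activates microglia. The labels place LPS before transfection, and the study's methods place transfection first. All cells are of 1 line, the study counts its replicates as independent experiments, and p-values measure only the spread between these libraries.

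The 7 RNAs work without being translated, and RNA polymerase III transcribes all of them in mammals except Terc, which RNA polymerase II transcribes. Rpph1 is the catalytic RNA of RNase P, which trims the leader from transfer RNA precursors, and Rmrp is the related RNA of RNase MRP, which acts in ribosomal RNA processing and shares most protein subunits with RNase P. 7SL, from Rn7s1, Rn7s2 and Rn7s6, is the scaffold of the particle that brings secreted and membrane proteins to the endoplasmic reticulum. 7SK, from Rn7sk, holds the transcription elongation factor P-TEFb in an inactive particle with Hexim and Larp7 proteins, and Terc carries the template for telomere repeats. Activated macrophages are known for rapid release of paused RNA polymerase II by P-TEFb and for high protein secretion.

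The libraries were made from total RNA after ribosomal RNA depletion, so RNAs without a poly(A) tail were kept. The deposited values are estimated counts whose decimal marks were lost, and the marks were restored before any level was computed. Library totals after restoration ran from 1203500 to 20656000 counts, a ratio of 17.2, and no pair of libraries was identical. All 10 microglia and macrophage markers had a mean of at least 1 CPM (counts per gene scaled to equal library totals), with a summed level of 2400 to 5270 CPM per library. The astrocyte, neuron and oligodendrocyte lists summed to at most 1.65, 2.04 and 11.6 CPM.

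Of the 224 values of the 7 genes, 5 could not be read with a posterior probability of at least 0.9, and all 5 are Rn7s2 or Rn7s6 values in the miR-146a groups. Rmrp and Terc needed almost no restoration, since 31 of their 32 values each were read as whole numbers. Every value of Rpph1, Rn7sk and the 3 7SL genes was read as a number with decimals, so their level rests on the restoration. Where all genes of a library shared 1 library size in that step, 3 values moved. Rpph1 in VEH miR-7a library 1 was read 10 times higher than here, and Rn7s1 in VEH miR-29a library 2 was read 10 times lower. Rn7s6 in LPS miR-146a library 4, among the 5, was read at 55.93 CPM instead of 559.

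The 3 7SL genes carry copies of nearly the same RNA, so reads from stretches the copies share cannot be told apart. The transcripts of Rn7s1 and Rn7s2 were identical over their whole length, and Rn7s6 had 85.1% identity to them. All 3 genes overlap annotated microRNA genes on their own strand.

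Rn7sk, 331 bases at chr9:78175303-78175633 on the minus strand, overlaps no other annotated gene. Its first 80 bases are shown because the 5′ hairpin of 7SK, known for its GATC repeats, is where Hexim proteins bind, and capitals mark the 3 GATC.
Rn7sk: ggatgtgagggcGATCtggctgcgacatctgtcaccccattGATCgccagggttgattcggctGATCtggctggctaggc
Terc, 423 bases at chr3:96414437-96414859 on the minus strand, also stands alone. Positions 3 to 61 are shown because they hold the template for telomere repeats, and capitals mark the 9 bases at positions 28 to 36 that repeat the telomere's complementary strand.
Terc: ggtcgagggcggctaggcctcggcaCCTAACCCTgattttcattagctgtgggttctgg
Rpph1, 319 bases at chr14:50807449-50807767 on the minus strand, lies within Ccnb1ip1 on the same strand. Rmrp, 271 bases at chr4:43492788-43493058 on the minus strand, overlaps Ccdc107 on the other strand and a long noncoding gene model of its own name. Rpph1 and Rmrp had 52% identity in a global alignment, with 9 bases as their longest shared stretch, a value like that of unrelated pairs among the 7.

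The mature microRNAs that the mimics stand for are shown with the seed, bases 2 to 8, in capitals, as given by RefSeq for GRCm38.p6.
mmu-miR-7a-5p: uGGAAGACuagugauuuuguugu
mmu-miR-29a-3p: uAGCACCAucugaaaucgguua
mmu-miR-146a-5p: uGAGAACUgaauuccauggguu
A match to the seed is GTCTTCC for miR-7a, TGGTGCT for miR-29a and AGTTCTC for miR-146a, each read on the transcript strand only. None of the 3 was found in any of the 7 transcripts. Of 16510 annotated transcripts of 250 to 450 bases, 3.42% held the first, 5.34% the second and 3.26% the third.

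Compared per kilobase of transcript, on the scale of CPM scaled by the trimmed mean of M values (TMM), the median level over the 32 libraries was 32100 for Rn7sk. Rn7s1 followed at 26200, Rpph1 at 17400, Rn7s2 at 14600 and Rmrp at 8650. Rn7s6 stood at 1940 and Terc at 155 TMM CPM per kilobase. Terc was thus the rarest of the 7 in these cells, and the neighbours from Rn7sk to Rmrp overlapped widely, Rpph1 for example spanning 8890 to 561000 and Rn7s1 9700 to 274000. Of the 3 7SL genes, Rn7s6 had the lowest level per kilobase at the median of the libraries.

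The 7 genes together took between 1.82% and 27% of all counts of a library. In the VEH scramble libraries 1 to 4 they took 5.11, 8.67, 7.73 and 7.09% of counts, a mean of 7.15% ± 1.51 (SD, n = 4). In the LPS scramble libraries the share was 4.71, 2.2, 2.77 and 2.39%, a mean of 3.02% ± 1.15. The groups did not overlap, and the LPS scramble library 1, with the smallest total of its group at 2719600 counts, stood nearest to the VEH libraries.

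The VEH miR-7a libraries had shares of 4.69, 27, 20.5 and 24.4%, a mean of 19.1% ± 10.0. Libraries 2 to 4 of that group were above each of the other 29 libraries, and library 1 was below every VEH scramble library. The VEH miR-29a libraries had 5.29, 13.4, 5.04 and 3.19%, with library 2 alone above 10%. The VEH miR-146a libraries had 3.46, 5.24, 2.69 and 3.16%, all but library 2 below every VEH scramble library. With LPS the mimic groups were close to each other, at 2.31% ± 0.033 for miR-7a, 2.67% ± 0.707 for miR-29a and 3.14% ± 1.16 for miR-146a.

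Library 1 of VEH miR-7a depended on how the decimal marks were restored. With 1 set of library sizes its share was 13.4% in place of 4.69%, since Rpph1 was then read as 104700 CPM rather than 12180. The counts of Rmrp and Terc were read as whole in that library and were the same under both choices, and their levels of 2709 and 142.5 CPM, or 2328 and 122.5 CPM with the library total of the other choice, were the lowest in the group. The share in VEH miR-29a library 2 was 11.7% in place of 13.4%, because Rn7s1 was then read as 2111 rather than 20710 CPM.

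**Figure D1:**
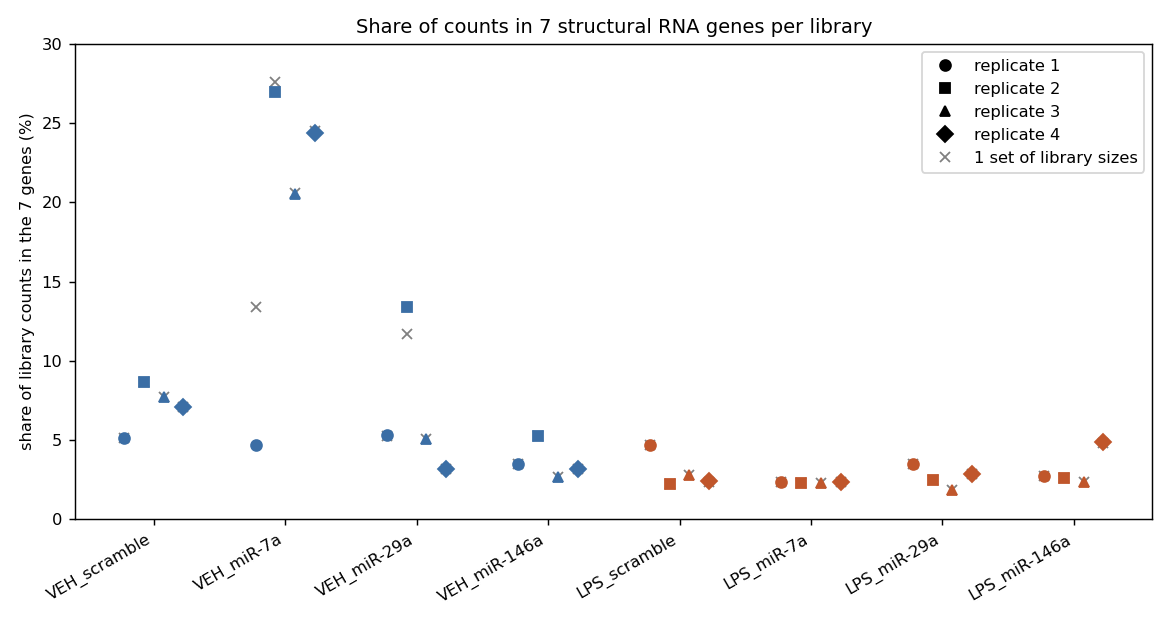
Percent of all counts in the 7 genes for each of the 32 libraries, by group, with crosses for the restoration with 1 set of library sizes. VEH miR-7a libraries 2 to 4 lie at 20.5 to 27%, the LPS libraries at 1.82 to 4.86%, and the cross of VEH miR-7a library 1 lies at 13.4% against 4.69%.

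Other values moved with the high shares. VEH miR-7a libraries 2 to 4 were among the 4 smallest of the 32, at 1843500, 2445600 and 1203500 counts, while library 1 held 5268900. All other structural RNA genes together made 9.92% ± 5.84 of counts in VEH miR-7a and 2.55% ± 0.699 in VEH scramble. The microglia marker list summed to 2400 to 4100 CPM in VEH miR-7a and 4120 to 5030 CPM in VEH scramble. Their part in the result was not tested, and in bulk libraries of relative counts fewer cells of a type, less RNA per cell and a change in all other RNA cannot be told apart.

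Raw counts of the 7 genes were set against the library total, which had a ratio of 17.2 from lowest to highest. Rn7s1 counts ran from 24266 to 103670, a ratio of 4.27. With 1 set of library sizes the lowest Rn7s1 count was 7384.9, in VEH miR-29a library 2, and the ratio was larger. Rn7s2 counts had a ratio of 3.86 over the libraries read with certainty, of 41.3 with its 2 uncertain values and of 14.3 at their second reading. The other 5 genes had ratios of 16.7 for Rn7sk to 36 for Rn7s6, the latter 101 at the second reading. Rpph1 had 28.7, and more with 1 set of library sizes, where its highest count was 641790 in place of 244210. The slope of log10 count on log10 library total over the 32 libraries was 0.01 for Rn7s1, 0.1 for Rpph1, 0.18 for Rmrp and 0.13 for Terc, where counts in proportion to the total would give a slope of 1. Rn7sk was the exception among the 7, with a slope of 0.62 and a Pearson r of 0.73. These points share library and depth, and groups differ in both, so the slopes are a description. They were not computed with 1 set of library sizes.

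**Figure D2:**
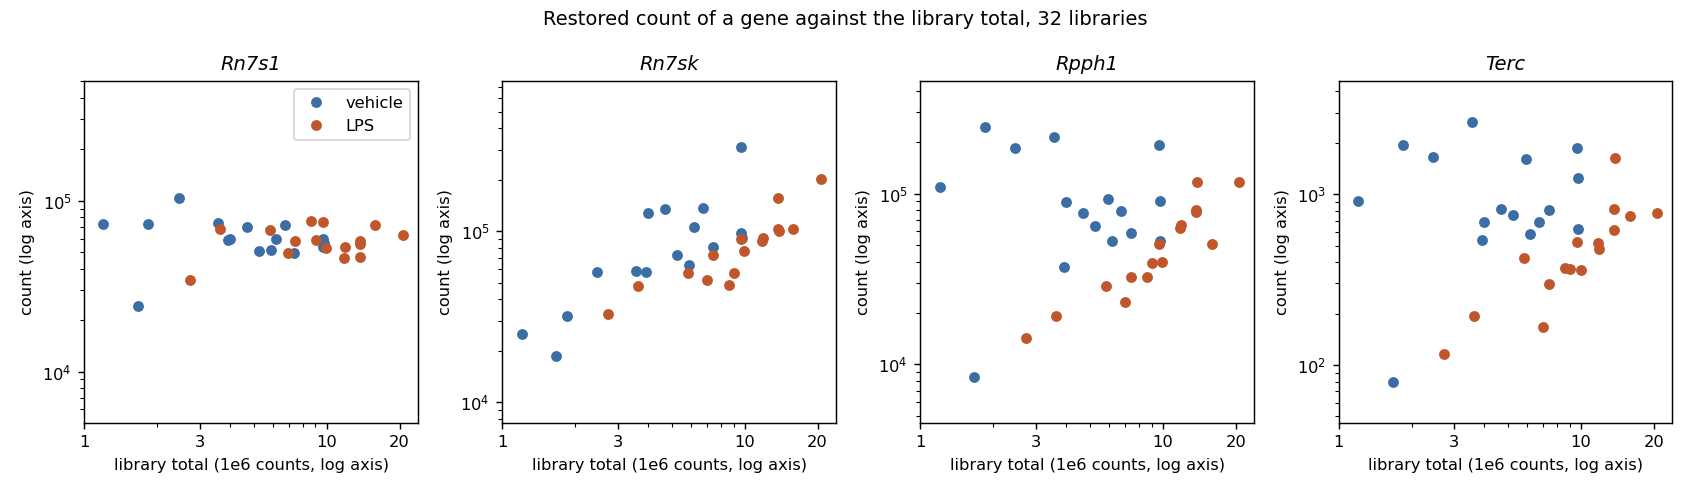
Restored count against library total, both on log axes, for Rn7s1, Rn7sk, Rpph1 and Terc in the 32 libraries. Rn7s1, Rpph1 and Terc are nearly flat, with slopes of 0.01, 0.1 and 0.13, and Rn7sk rises with the total with a slope of 0.62.

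Under LPS, 4 of the 7 RNAs were lower in scramble cells. Terc fell 3.89-fold, Rpph1 3.31-fold, Rn7sk 3.07-fold and Rmrp 3.01-fold, while Rn7s1, Rn7s2 and Rn7s6 had lower means without passing the test. In limma-voom over 12106 genes, 2205 genes (18.2%) were called at a Benjamini-Hochberg adjusted p under 0.05, in either direction, and 8.43% were called lower. The VEH scramble libraries were among those whose structural RNA shares were in view when the 7 genes were chosen, so the count of 4 of 7 and its p-values are a description and not independent evidence. Of the called genes 53.7% were higher, against 80.6% when libraries were scaled by total counts, and the same 4 of the 7 were called lower under both. Libraries of the same number deviated together, and with the replicate number as a block 6 of 7 were called lower, where 25.7% of genes were called in all and 12.7% were called lower.

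Terc made 94.66, 173.5, 173.2 and 192.5 CPM in VEH scramble and 42.65, 59.78, 44.73 and 37.57 CPM in LPS scramble. Every LPS library was below every VEH library, and VEH library 1 was the lowest of its group. The log2 fold change was -1.96 ± 0.26 (SE, limma-voom adjusted p = 0.000407), and over 11 alternative settings the adjusted p ran from 1.32e-05 to 0.0104.

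Rpph1 made 0.859, 2.25, 1.64 and 1.98% of counts in VEH scramble and 0.528, 0.572, 0.587 and 0.564% in LPS scramble. The groups did not overlap, and the LPS libraries were within 1.11-fold of each other. Its log2 fold change was -1.73 ± 0.29 (limma-voom adjusted p = 0.00187, range 2.76e-05 to 0.0312).

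Rmrp made 0.305, 0.744, 0.811 and 0.782% of counts in VEH scramble and 0.198, 0.186, 0.345 and 0.268% in LPS scramble. LPS library 3 was above VEH library 1, the only overlap, and within each number the LPS library was lower. Limma-voom gave a log2 fold change of -1.59 ± 0.34 (adjusted p = 0.00853), and the call was lost, at an adjusted p of 0.0798, with all 8 groups in 1 fit.

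Rn7sk made 1.72, 3.19, 2.85 and 3.19% of counts in VEH scramble and 1.21, 0.748, 1.14 and 0.98% in LPS scramble. All LPS libraries were lower, again with VEH library 1 the nearest. Its log2 fold change was -1.62 ± 0.26 (limma-voom adjusted p = 0.00161, range 6.37e-06 to 0.00561).

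In the 7SL copies 1 library of LPS scramble stood apart. Rn7s1 made 0.966, 1.49, 1.49 and 0.614% of counts in VEH scramble and 1.27, 0.409, 0.343 and 0.306% in LPS scramble. Rn7s2 made 1.2, 0.781, 0.835 and 0.426% in VEH scramble and 1.48, 0.222, 0.255 and 0.172% in LPS scramble. LPS library 1 was as high as the VEH libraries in both genes, and LPS libraries 2 to 4 were below all of them. Limma-voom gave a log2 fold change of -1.33 ± 0.44 for Rn7s1 (adjusted p = 0.0566) and -1.26 ± 0.58 for Rn7s2 (limma-voom adjusted p = 0.147). With the replicate block both passed, at adjusted p of 0.0268 and 0.0173, and without a filter on low values at 0.00306 and 0.0146. Without LPS library 1 they passed too, at log2 fold changes of -1.86 and -2.06, in a fit that called 1499 genes (11.9%) and 6 of the 7. Without VEH library 4, Rn7s1 passed and 5 of the 7 were called, in a fit that called 1318 of 11978 genes (11%). Leaving out any other library left neither gene called: Rn7s1 was called in 2 and Rn7s2 in 1 of 8 such fits, at adjusted p up to 0.158 and 0.339. Each was called in 2 of the 10 other alternatives, with adjusted p up to 0.0752 and 0.175.

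Since Rn7s1 and Rn7s2 are identical, their sum was also fitted, an item added after the data were seen. The sum had a log2 fold change of -1.31 ± 0.49 (limma-voom adjusted p = 0.0857) and of -1.35 ± 0.36 with the block (adjusted p = 0.023). The ratio of Rn7s1 to Rn7s2 was 0.807 to 2.61 in the 30 libraries where both were read with certainty, with a median of 1.78 and 28 libraries above 1. The 2.61 was VEH miR-29a library 2. With 1 set of library sizes its counts were 7384.9 for Rn7s1 and 28245 for Rn7s2, the lowest ratio in place of the highest. How the quantification split reads between the copies is not given in the sources used here, so the single values are uncertain and the sum is the firmer level.

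Rn7s6 made 502.1, 1908, 840.5 and 711.8 CPM in VEH scramble and 207.5, 560.1, 954.8 and 922.9 CPM in LPS scramble. The groups overlapped, with LPS library 1 the lowest of the 8. The log2 fold change was -0.92 ± 0.51 (limma-voom adjusted p = 0.224), and it missed the threshold with the block as well, at 0.0536.

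**Figure D3:**
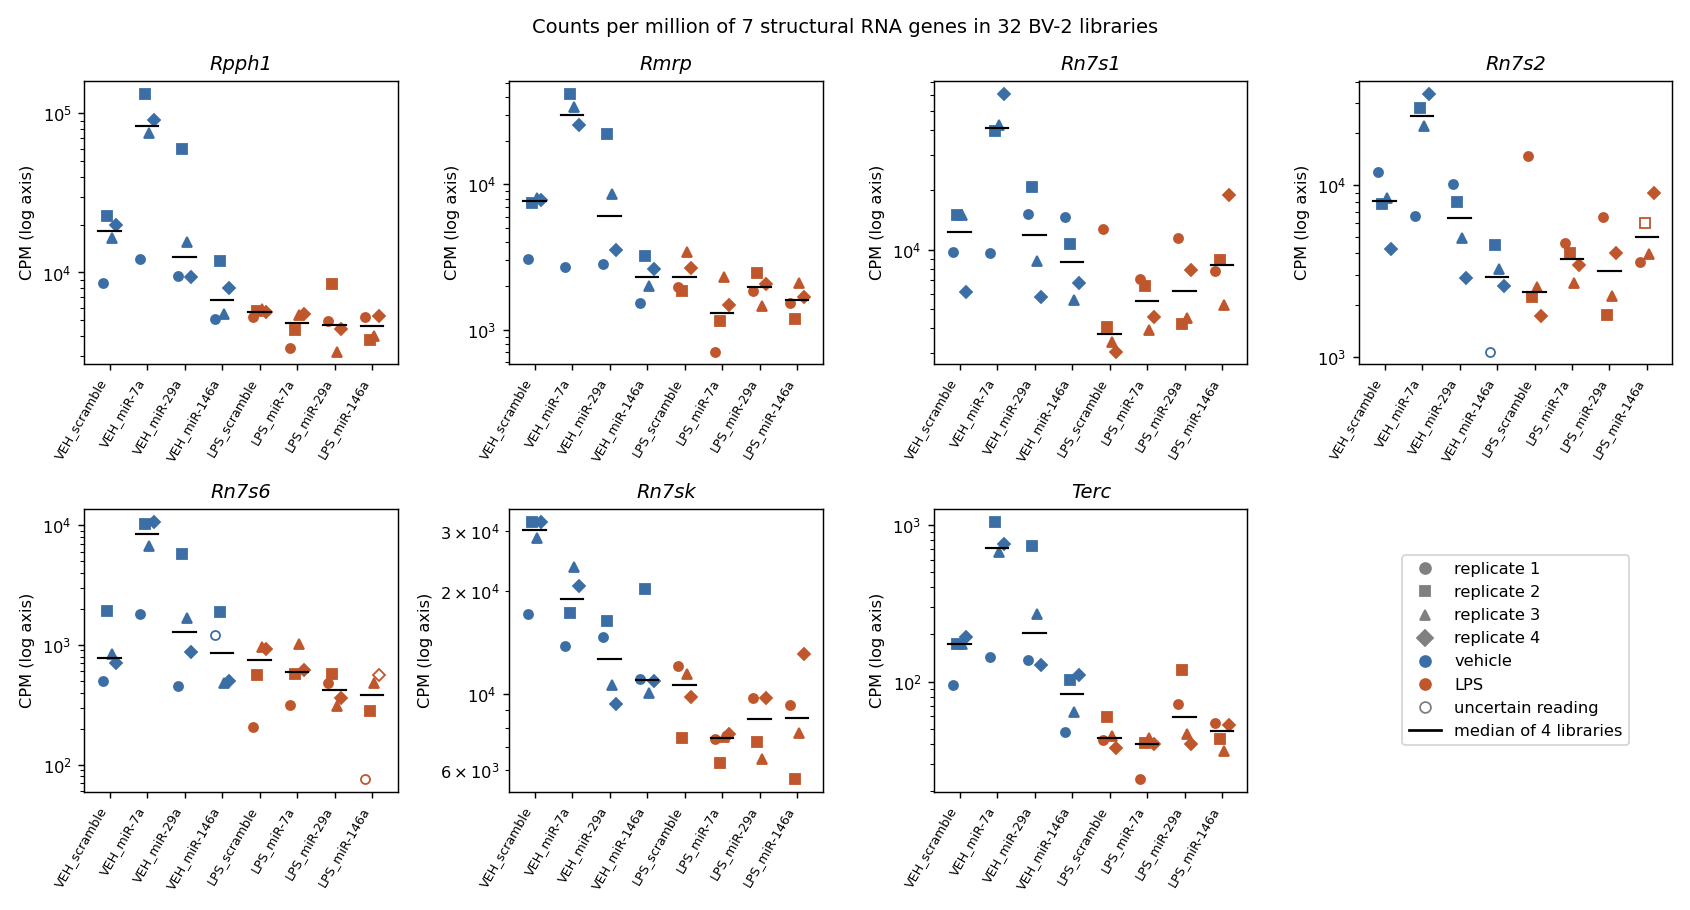
CPM of each of the 7 genes in the 32 libraries on a log axis, by group, with vehicle and LPS in different colours, a marker shape for each replicate number, open symbols for uncertain values and a bar at the group median. VEH miR-7a libraries 2 to 4 are the highest in Rpph1 and Rmrp, while Rn7sk is highest in VEH scramble at up to 31920 CPM.

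Of 64 genes tested in the 5 lists of protein partners, 9 (14.1%) were called in LPS against VEH scramble, beside 18.2% of all genes, and 15 (23.4%) beside 25.7% with the block. Of the RNase P and RNase MRP proteins, 10 were tested, none was called higher and 2 lower, with a median log2 fold change of -0.11 against 0.01 over all genes. Pop5, a subunit of both enzymes, fell from 15.3 ± 1.05 to 9.71 ± 1.81 CPM (log2 fold change -0.91 ± 0.2, limma-voom adjusted p = 0.009), and Rpp21, a subunit of RNase P, from 7.46 ± 0.794 to 5.22 ± 0.465 CPM (adjusted p = 0.0372), a call that was lost with the block.

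Of the 9 proteins of the signal recognition particle and its receptor that were tested, 1 was called, higher, with a list median of 0.31. It was Srprb, the membrane anchor of the receptor, which rose from 27 ± 3.05 to 47.7 ± 4.64 CPM (limma-voom adjusted p = 0.0143). Of 7 genes of the 7SK particle and P-TEFb, 1 was called, higher, with a median of 0.24. Hexim2, a P-TEFb inhibitor that binds 7SK, rose from 1.78 ± 0.603 to 4.23 ± 0.165 CPM (limma-voom adjusted p = 0.0365), and it too was not called with the block.

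Of 8 telomerase proteins 1 was called, lower, with a median of -0.08. Nop10, a protein of the H/ACA particles to which Terc belongs, fell from 78.7 ± 26.9 to 46.9 ± 7.36 CPM (limma-voom adjusted p = 0.0256). Of 30 genes of RNA polymerase III and its promoter factors, 3 were called higher and 1 lower, with a median of 0.1. Crcp, a polymerase subunit, rose from 7.52 ± 0.795 to 16.9 ± 1.49 CPM (limma-voom adjusted p = 0.00423), as did the transcription factor Pou2f1 (adjusted p = 0.0271) and the TFIIIB subunit Bdp1 (adjusted p = 0.0395). Maf1, a repressor of RNA polymerase III, fell from 67.1 ± 8.26 to 49.7 ± 2.35 CPM (adjusted p = 0.013).

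Of 13 other short structural RNA genes, 9 were tested, 8 of them with a log2 fold change below 0 and a median of -0.74, and 1 (11.1%) was called, where 49.1% of all genes were below 0, 18.2% were called and 8.43% were called lower. It was Rnu11, the U11 RNA of the minor spliceosome, which fell from 6.44 ± 1.99 to 3.94 ± 2.73 CPM (log2 fold change -1.43 ± 0.42, limma-voom adjusted p = 0.0348). In the mimic comparisons under LPS, 0 of 73, 0 of 70 and 0 of 72 genes of the 6 lists were called by limma-voom with the miR-7a, the miR-29a and the miR-146a mimic, where 2.94, 4.81 and 2.41% of all genes were. With the block 3, 3 and 8 were called (4.11, 4.29 and 11.1%), where 9.9, 10.6 and 10.9% of all genes were. The 8 for miR-146a were all lower, where 732 of the 1357 genes called were lower. Of 8 short structural RNAs tested, 4 were among them (Rnu12, Rnu3a, Rny1 and Rny3). The others were Dkc1, Nhp2, Nop10 and Pop1 of the protein lists, and all were named after their values were seen.

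Under LPS the miR-7a mimic gave 0 called of 7 without the block and 3 of 7 with it. The 3 comparisons of a mimic with LPS scramble use the same 4 LPS scramble libraries. In LPS miR-7a against LPS scramble, limma-voom called 378 of 12839 genes (2.94%), and 2241 had an unadjusted p under 0.05. The share called was 9.9% with the block.

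Rmrp made 0.071, 0.115, 0.229 and 0.148% of counts in LPS miR-7a, against 0.198, 0.186, 0.345 and 0.268% in LPS scramble. It was lower in each of the 4 pairs of equal number, at 0.359 to 0.664 of the scramble CPM, while the groups overlapped. Its log2 fold change was -0.96 ± 0.31 (limma-voom adjusted p = 0.127), and ± 0.12 with the block (adjusted p = 0.00018).

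Rn7sk made 0.742, 0.628, 0.749 and 0.768% of counts in LPS miR-7a, lower than LPS scramble within each number, although library 4 was above LPS scramble library 2. Its log2 fold change was -0.54 ± 0.17 (limma-voom adjusted p = 0.118), and ± 0.1 with the block (adjusted p = 0.00296). Rpph1 made 0.334, 0.432, 0.537 and 0.552%, also lower within each number. Its log2 fold change was -0.36 ± 0.16 (limma-voom adjusted p = 0.281), and ± 0.11 with the block (adjusted p = 0.0418). Terc had a log2 fold change of -0.37 ± 0.2 (limma-voom adjusted p = 0.371, 0.297 with the block), and the 3 7SL genes were between -0.05 and 0.06, with Rn7s2 changing sign to 0.04 under scaling by total counts. Without LPS scramble library 1 they were 0.57 for Rn7s1, 0.71 for Rn7s2 and -0.49 for Rn7s6. Without LPS scramble library 2, Rn7sk passed without the block (adjusted p = 0.0427), and without a filter on low values Rn7sk and Rmrp passed (adjusted p = 0.0356 and 0.0428).

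For miR-29a under LPS, 0 of 7 were called in either fit, where limma-voom called 629 of 13083 genes (4.81%) and 2783 had an unadjusted p under 0.05. The block called 10.6%. Terc made 72.45, 118.1, 46.58 and 40.22 CPM against 42.65, 59.78, 44.73 and 37.57 CPM in LPS scramble. In CPM it was higher in each of the 4 pairs, and in 3 of 4 after TMM scaling, with a log2 fold change of 0.43 ± 0.29 (limma-voom adjusted p = 0.429). Rn7sk had -0.36 ± 0.21 (limma-voom adjusted p = 0.359, 0.0782 with the block), Rmrp -0.36 ± 0.21 (0.357) and Rpph1 -0.25 ± 0.23 (0.58), each on the log2 scale. The 7SL genes were at 0.3 ± 0.46 for Rn7s1, -0.29 ± 0.64 for Rn7s2 and -0.42 ± 0.41 for Rn7s6. Without LPS scramble library 1 these were 0.86, 0.57 and -0.97, so that Rn7s2 changed sign, and without LPS miR-29a library 1 Rn7s1 was at -0.02.

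For miR-146a under LPS, 0 of the 5 members tested were called, and 1 of 5 with the block. Limma-voom called 300 of 12463 genes (2.41%), with 2172 at an unadjusted p under 0.05, and 10.9% with the block. Rmrp made 0.154, 0.119, 0.211 and 0.168% of counts, lower than LPS scramble within each number at 0.612 to 0.778 of its CPM. The log2 fold change was -0.55 ± 0.23 (limma-voom adjusted p = 0.24), and -0.56 ± 0.08 with the block (adjusted p = 0.0032).

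Rn7s1 made 0.776, 0.888, 0.528 and 1.89% of counts in LPS miR-146a, with library 4 well above the rest. Its log2 fold change was 0.89 ± 0.48 (limma-voom adjusted p = 0.364). Rpph1, Rn7sk and Terc had log2 fold changes of -0.26 ± 0.15, -0.2 ± 0.26 and 0.02 ± 0.18, none called, and Terc changed sign to -0.01 under scaling by total counts. Rn7s2 and Rn7s6 were left out of this fit because of uncertain values. With those values kept, their log2 fold changes were 0.52 ± 0.62 and -0.97 ± 0.63, and at the second reading -0.29 ± 0.83 and -0.96 ± 0.7, so the direction for Rn7s2 hung on where a single decimal mark was put.

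The vehicle libraries with a mimic are described by their values alone. Rpph1 made 1.22, 13.2, 7.54 and 9.09% of counts in VEH miR-7a, a geometric mean 3.64 times that of VEH scramble. All 4 were above the scramble library of their number, and libraries 2 to 4 were above every other library, except that library 1, at 104700 CPM with 1 set of library sizes, would stand among them. The ratio of 3.64 rested on library 1, being 6.11 without it and 6.29 with 1 set of library sizes. Rmrp made 0.271, 4.19, 3.41 and 2.58%, at 2.89 times VEH scramble, and Terc 142.5, 1048, 669.4 and 756.9 CPM, at 3.43 times. In both genes library 1 was within the range of the other groups and libraries 2 to 4 were above it, save that Terc in VEH miR-29a library 2, at 737.4 CPM, was above library 3. Without library 1 the ratios were 5.4 for Rmrp and 5.29 for Terc.

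The 7SL copies were high in the same 3 libraries. Rn7s1 and Rn7s2 together made 1.62, 6.74, 6.46 and 9.48% of counts in VEH miR-7a, at 2.74 times VEH scramble. Rn7s6 made 1801, 10230, 6689 and 10690 CPM, at 6.93 times, or 10.4 times without library 1. Rn7sk did not share this pattern, with 1.38, 1.73, 2.35 and 2.07% and a ratio of 0.695. It was lower than in VEH scramble within each of the 4 numbers, the opposite side from Rpph1 and Terc in the same libraries.

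In VEH miR-29a, Rpph1 made 0.95, 5.98, 1.56 and 0.934% of counts and Rmrp 0.285, 2.23, 0.86 and 0.353%. Terc made 137.7, 737.4, 271.3 and 127.6 CPM. Library 2 was the highest of its group in all 3 genes, and the group ratios to VEH scramble were 1.07, 1.08 and 1.59, or 0.703, 0.718 and 1.1 without library 2. Rn7sk made 1.47, 1.64, 1.07 and 0.938%, all below VEH scramble, at 0.469 times. After TMM scaling the ratio was 0.431, and library 2, at 18040 TMM CPM, was above VEH scramble library 1, at 16800.

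In VEH miR-146a the ratios to VEH scramble were 0.452 for Rpph1, 0.367 for Rmrp, 0.502 for Terc and 0.472 for Rn7sk, and each of these was lower in all 4 pairs of equal number. Rmrp made 0.154, 0.321, 0.201 and 0.264%, and Terc 48.04, 102.3, 64.43 and 109.5 CPM. The ranges overlapped through the low VEH scramble library 1 or a high library of the mimic group. Rn7s1 and Rn7s2 together stood at 0.636 times and Rn7s6 at 0.985 times, with an uncertain reading of Rn7s2 and Rn7s6 in library 1. At the second reading these ratios were 0.717 and 0.554.

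With LPS the mimic groups stood at 0.534 to 1.39 times LPS scramble for Rpph1, Rmrp, Terc and Rn7sk. In miR-7a cells the ratio of LPS to vehicle was 0.0789 for Rpph1, 0.0725 for Rmrp and 0.0687 for Terc. It was 0.0966 for Rn7s6, 0.176 for the summed Rn7s1 and Rn7s2 and 0.389 for Rn7sk. All were without overlap, and the share of all genes without overlap was not counted for any pair of groups. Without VEH library 1 the ratios were 0.047, 0.0387, 0.0445, 0.0646, 0.12 and 0.354, in the same order, and with 1 set of library sizes that of Rpph1 was 0.0457. In miR-29a cells it was 0.29 for Rpph1, 0.29 for Rmrp and 0.26 for Terc, without overlap, and 0.656 for Rn7sk, or 0.441, 0.434, 0.376 and 0.718 without VEH library 2. It was 0.3 for Rn7s6, 0.576 for Rn7s1 and 0.551 for Rn7s2, all with overlap, and 1.02 for Rn7s1 with 1 set of library sizes. In miR-146a cells it was 0.634 for Rpph1, 0.706 for Rmrp, 0.6 for Terc, 0.68 for Rn7sk, 0.32 for Rn7s6, 1.04 for Rn7s1 and 2.08 for Rn7s2, and all of these overlapped. Rn7s2 was higher with LPS in each of the 4 pairs, and the sum of Rn7s1 and Rn7s2 stood at 1.22. At the second reading of the uncertain values Rn7s2 stood at 0.659, the sum at 0.969 and Rn7s6 at 0.569.

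Within groups, Rpph1, Rmrp and Terc varied together. After the group means were removed, Pearson r of log2 TMM CPM over the 32 libraries was 0.96 for Rpph1 and Terc, 0.94 for Rpph1 and Rmrp and 0.9 for Rmrp and Terc. It was 0.79 for Rn7s1 and Rn7s2, which have the same sequence, and 0.13 for Rn7s2 and Rn7s6. With the uncertain values at their second reading these were 0.8 and -0.12, and without the libraries that hold them 0.92 over 30 and 0.12 over 28 libraries. Rn7sk had 0.67 with Rpph1 and 0.55 with Terc. These values share libraries, depth and scaling factors and are a description. Those with Rpph1 used its reading of 12180 CPM in VEH miR-7a library 1. They were not computed at 104700 CPM, the reading with 1 set of library sizes. From lowest to highest library, the CPM of Rn7sk spanned a ratio of 5.65, against 41.6 for Rpph1, 59.0 for Rmrp and 43.9 for Terc.

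Among 8778 other genes with a mean of at least 10 CPM, those most like Rn7sk in log2 CPM over the 32 libraries were Gm24447 (r = 0.955), Scarna2 (0.943), Gm26035 (0.915), Scarna13 (0.866) and Rpl36 (0.862). Gm24447 and Gm26035 carry the same annotated class as Rn7sk, and Scarna2 and Scarna13 are small Cajal body RNAs. Those most like Rpph1 were Snhg3 (0.954), Snord33 (0.954), Snora73a (0.954), Scarna6 (0.953) and Gm25395 (0.952). Apart from Snhg3, a host gene of small nucleolar RNAs, all of the latter are small nucleolar or small Cajal body RNAs. In the restoration the structural RNA genes shared library sizes of their own. Their likeness to Rn7sk or Rpph1 is thus not independent of that step, and its part was not tested.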

How the data were processed

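Total RNA of 32 BV-2 cultures was depleted of ribosomal RNA and made into libraries with a total RNA kit. The authors aligned and quantified reads on GRCm38 with the nf-core rnaseq workflow, and per the labels limma and edgeR were used downstream. The aligner and the quantifier are not given in the sources used here. The deposited table holds estimated counts per gene without their decimal marks, so a value may be up to 3 decimal places too large. Of 109458 values of at least 20000, 0.0155% end in 0, and 43.1% are a whole number give or take the last of 3 decimals.

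Decimal marks were restored per value from the gene's level in the other libraries and the library's size (t likelihood with 7 degrees of freedom, prior shares of 0.01, 0.09 and 0.9 for 1, 2 and 3 decimals). The 3881 structural RNA genes and members had library sizes of their own. Of 590874 values above 0, 28.4% received decimals, and 1.24% had a posterior under 0.9 and were called uncertain. A gene with an uncertain value was left out of that fit. Of 161 member values of at least 100, 13.0% were read with fewer than 3 decimals, where evenly spread last digits give 10%. The prior shares already favour the same 10%, so this is no independent check. Over structural RNA genes the share per library ran from 1.92 to 30.8%, the highest in VEH miR-146a library 1 (8 of 26 values).

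Groups came from the labels, and each comparison was fitted on its 8 libraries with limma-voom (limma 3.58.1, R 4.3.3) after a filter (minimum count 10, minimum total 15) and TMM scaling, with Benjamini-Hochberg adjustment over all genes tested. The fit without a block was tested on simulated data for LPS miR-7a against LPS scramble only. Structural RNA genes, the 7 among them, were left out of that scoring, so it does not cover them. Other steps used Python 3.11.15, numpy 2.4.6, scipy 1.17.1, pandas 2.3.3 and matplotlib 3.10.9. Same-numbered libraries deviated together in 16 of 16 pairs (r = 0.32 to 0.75, each the highest for its number), so fits with the number as a block are given where they change a call. Likeness used log2(CPM + 0.5). All 7 genes were named, called members of the partner lists were named up to 4 a list, and the 5 genes most like Rn7sk and Rpph1 were named. Members and lists were chosen with earlier results of these data known. Ratios without VEH miR-7a library 1 or VEH miR-29a library 2, and ratios and correlations at the second reading of uncertain values or without them, were added after seeing the data. Other alternatives were scaling, filter, restoration, limma-trend, all 8 groups in 1 fit and leaving out each library. Certain sequences and a marker gene are not reported here.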

Additional observations from a re-analysis of the deposited data

Results flagged for a closer look

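Of 72 groups of 4 libraries examined, 7 had a library far from the other 3 by Dixon's criterion, where chance gives about 1 in 20. Rpph1 was highest in VEH miR-29a library 2 at 59760 CPM. Rmrp was lowest in VEH scramble library 1 at 3047 CPM. Rn7s1 and Rn7s2 were both highest in LPS scramble library 1, at 12650 and 14850 CPM. Rn7sk was highest in VEH miR-146a library 2 at 20340 CPM. The 7 genes summed were highest in LPS miR-146a library 4, at 4.86% of counts. All structural RNA genes summed were lowest in VEH miR-7a library 1, at 6.07% of counts, or 19% with 1 set of library sizes.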

How the results depend on the processing

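In LPS against vehicle scramble, Terc, Rpph1 and Rn7sk were called lower under all 11 alternatives and without each library in turn, and Rmrp under 10 of 11. Among the 11, the second reading of uncertain values of the 7 genes could only repeat the main fit, since those values lie in the miR-146a groups. The VEH scramble libraries were in view when the 7 genes were chosen, so these calls are a description. The uncertainty of restored decimals limits Rn7s2 and Rn7s6 most, and depth differed 17.2-fold. The replicate block called 1271 genes for miR-7a, 1381 for miR-29a and 1357 for miR-146a under LPS, against 378, 629 and 300, and limma-trend called 145 for miR-146a. Apart from the calls named above, the block changed no other call of the 7 genes. Leaving out each library gave 1136 to 2897 calls for LPS, 75 to 405 for miR-7a, 157 to 689 for miR-29a and 31 to 266 for miR-146a, the lowest each time without LPS scramble library 4. Scaling by total counts moved the median gene by 0.22 (log2) for LPS and the share of calls that were higher from 53.7 to 80.6% for LPS, 57.9 to 69.0% for miR-7a, 45.2 to 59.7% for miR-29a and 34.3 to 25.2% for miR-146a, with the same 4 members called for LPS.

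Values near 0 changed sign, and the cause was not tested. For miR-7a, Rn7s6 was -0.17 without the filter, -0.01 with limma-trend, -0.02 with all 8 groups, -0.02 with the block and -0.0 with TMM set without small structural RNA genes, and Rn7s2 was 0.04 with total counts, 0.28 without the filter, 0.01 with limma-trend and 0.01 with the block. Rn7s2 was 0.02 without the filter for miR-29a. Terc for miR-146a was -0.01 with total counts, -0.0 at a posterior minimum of 0.99 and -0.06 with the block. Leaving out a library gave -0.49 to 0.33 for Rn7s6, -0.16 to 0.57 for Rn7s1 and -0.38 to 0.71 for Rn7s2 with miR-7a, -0.02 to 0.86 for Rn7s1 and -0.66 to 0.57 for Rn7s2 with miR-29a, and -0.11 to 0.15 for Terc and -0.44 to 0.02 for Rn7sk with miR-146a.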
